A study of Homo sapiens
Mus musculus and Homo sapiens and Mus musculus with 7 samples.

Results

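The RNA of human HEK293 cells grown alone was set beside that of mouse NIH3T3 cells grown alone. These monocultures were 2 of the 7 libraries of the study, 1 library for each line. Human genes were read in the HEK293 library and mouse genes in the NIH3T3 library, each level relative to the counts of the line's own species. A human gene had a count for 13252 of 58721 identifiers in HEK293, and a mouse gene had a count for 13690 of 54752 identifiers in NIH3T3. The study itself tagged the ribosomal protein RPL22 with HA in HEK293 and with V5 in NIH3T3, mixed the lines, and pulled ribosomes down with an antibody against either tag. The libraries used here beside the monocultures were 2 HA immunoprecipitates (IPs) and 2 V5 IPs from the mixed culture and 1 co-culture input. The sources used here do not say whether the monocultures carried the tags or whether a line was 1 clone.

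HEK293 is a line made from human embryonic kidney cells with adenovirus DNA, and it is known for epithelial keratins and genes otherwise seen in neurons. NIH3T3 is a mouse embryo fibroblast line, and fibroblasts are known for making collagens and other extracellular matrix. In dividing cultured cells the most abundant messages usually code for ribosomal proteins, cytoskeleton and sugar metabolism. Mitochondria add RNAs from their own small genome, which holds ribosomal RNAs, transfer RNAs and subunits of the respiratory chain.

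The HEK293 library held 826781 gene counts and the NIH3T3 library held 1999078, so rare genes were read less deeply in HEK293. The other 5 libraries held between 888270 and 2063885 counts. The lines differ in species, and each has 1 library, so species, line and library cannot be told apart and no test was made between them. Intervals below are exact two-sided 95% intervals for counting error only (Clopper-Pearson for shares, Poisson for counts), since no molecular identifiers are named for these libraries. CPM is the count per 1e6 counts of the line's own species, and TPM divides by exonic length as well, so that genes can be compared. The exonic length covers every annotated exon of a gene, and TPM values are scaled within the species. Where a count is 0 a limit of 3 counts is given instead, which is a one-sided 95% limit and lower than a two-sided one. These 3 counts equal 3.63 CPM in HEK293 and 1.5 CPM in NIH3T3. No symbol was at hand for any mouse identifier, so mouse genes are described by rank, chromosome and length, and no fibroblast marker could be looked up in NIH3T3.

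Both lines spread their RNA over genes in much the same way, apart from the most abundant gene. That gene held 5.13% of human counts in HEK293 (5.08 to 5.17%) and 2.85% of mouse counts in NIH3T3 (2.83 to 2.87%). The 10 most abundant genes held 12.9% in HEK293 (12.88 to 13.02%) and 12.7% in NIH3T3 (12.65 to 12.74%). The 100 most abundant genes held 43.2% in HEK293 (43.1 to 43.3%) and 41.4% in NIH3T3 (41.3 to 41.5%). For both cut-offs the lines lay within 2 percentage points of each other, and their counting intervals did not overlap. It took 158 genes in HEK293 and 167 genes in NIH3T3 to reach 50% of the counts, and 2361 and 2119 genes to reach 90%. The gene at rank 100 stood at 1575 CPM in HEK293 and 1744 CPM in NIH3T3, and the gene at rank 1000 at 151.2 CPM in HEK293 and 155.1 CPM in NIH3T3. With the mitochondrial genes left out, the 10 most abundant genes held 9.36% in HEK293 and 12.2% in NIH3T3, and the 100 most abundant held 39.9% and 40.5%, so without mitochondrial RNA HEK293 was the lower line for both shares.

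**Figure D1:**
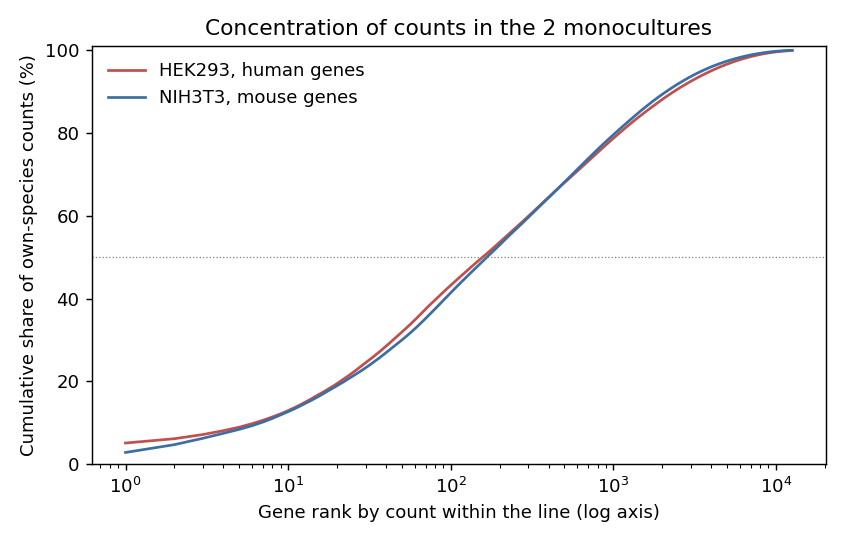
Cumulative share of own-species counts (vertical axis, percent) against gene rank (horizontal axis, log scale) in HEK293 (human genes) and NIH3T3 (mouse genes), 1 library each. The curves start at 5.13% and 2.85% and lie close together from rank 10 on, with 50% (dotted line) reached at 158 and 167 genes.

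The number of genes with a count, 13252 in HEK293 and 13690 in NIH3T3, came from libraries of unequal depth. Thinned to the HEK293 own-species total, NIH3T3 is left with 11796 genes with a count. Genes with at least 10 counts numbered 5315 in HEK293 and 7053 in NIH3T3, and thinning brought NIH3T3 to 4905. At an equal own-species total HEK293 thus had more genes with a count, by less than 1.5 times. The mitochondrial share and the size of the annotation still differed between the lines there, and their part was not tested.

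The most abundant HEK293 gene was MT-RNR2, the large ribosomal RNA of the mitochondrion, on chromosome M at 1671 to 3229 (hg38). It had 42385 counts and 73780 TPM (73079 to 74486). Of the 12 most abundant HEK293 genes by count, 10 code for ribosomal proteins in the list used here, and RACK1, a scaffold protein of the small ribosomal subunit with 6824 counts, was the other besides MT-RNR2. RPL13 on chromosome 16 followed MT-RNR2 with 8625 counts, then RPS19 on chromosome 19 with 8392, RPL5 on chromosome 1 with 7649 and RPS18 on chromosome 6 with 6953. RPS4X, RPS14, RPS3, RPL10, RPLP1 and RPL8 had between 6156 and 6951 counts. The step below MT-RNR2 was the largest in the ranking, and the ribosomal protein genes then followed at closely spaced levels. RPL10 shares 55.5% of its exonic bases with other genes, and the counting used no strand, so its level is uncertain. Among the 100 most abundant HEK293 genes, 61 code for ribosomal proteins and 8 are mitochondrial.

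The most abundant NIH3T3 gene was ENSMUSG00000029580.14 on chromosome 5, with 56941 counts over 2679 exonic bases and 17727 TPM (17582 to 17873). ENSMUSG00000068220.6 on chromosome 15 came next by count with 37698, and was the highest per length with 34819 TPM. The mitochondrial gene ENSMUSG00000064339.1 followed with 30874 counts, and ENSMUSG00000067274.10 on chromosome 5 with 23826. In NIH3T3 nuclear genes therefore led by count and by TPM, where MT-RNR2 led by both in HEK293. The leading mouse gene was at 28491 CPM in the NIH3T3 monoculture, against 11194 CPM in the co-culture input, again with 1 library each. Mitochondrial genes among the 100 most abundant numbered 8 in HEK293 and 3 in NIH3T3.

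The abundant genes of the lines also differed in their gene models. The median exonic length of the 100 most abundant genes was 2480.5 bases in HEK293 and 1915 bases in NIH3T3, and over all genes with a count it was 4483.5 and 3620 bases. Genes under 1000 exonic bases held 5.74% of counts in HEK293 (5.69 to 5.79%) and 13.1% in NIH3T3. In both lines the abundant genes were shorter than detected genes as a whole. Genes whose annotated exons merge into 1 stretch held 14.2% of counts in HEK293 and 8.03% in NIH3T3, and 5.86% and 5.07% once mitochondrial genes were left out. Genes that share over 10% of their exonic bases with another gene held 18.0% of counts in HEK293 and 12.5% in NIH3T3. The part of the annotations in these differences was not tested.

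By chromosome, 19 led in HEK293 with 10.2% of human counts, ahead of 1 with 9.14% and M with 8.35%. In NIH3T3 chromosome 7 led with 10.6%, ahead of 11 with 9.59% and 5 with 8.13%. RPS19 held 9.92% of the counts on human chromosome 19. The X chromosome held 5.30% of counts in HEK293 and 3.17% in NIH3T3, and RPS4X alone made up 15.9% of the HEK293 share.

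Mitochondrial genes held 69020 counts in HEK293, 8.35% of human counts (8.29 to 8.41%), and 59271 counts in NIH3T3, 2.97% of mouse counts (2.94 to 2.99%). A count was found on 29 of 37 mitochondrial genes in HEK293 and on 28 of 37 in NIH3T3. The leading gene took 61.4% of the mitochondrial counts in HEK293 and 52.1% in NIH3T3. The leading 3 genes took 76.4% in HEK293 and 87.9% in NIH3T3. Mitochondrial RNA was thus a larger share of own-species counts in HEK293. In NIH3T3 the leading 3 genes held more of it, although the leading gene held less.

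In HEK293 the mitochondrial ribosomal RNAs were far apart, with 42385 counts on MT-RNR2 and 1884 on the small-subunit RNA MT-RNR1. The messages for cytochrome c oxidase, the last complex of the respiratory chain, were high per length, with 22849 TPM for MT-CO2, 11222 TPM for MT-CO3 and 5297 TPM for MT-CO1. MT-CYB, the cytochrome b subunit of the preceding complex, had 10962 TPM, and MT-ND1, a subunit of the NADH dehydrogenase, had 6745 TPM. All 13 protein-coding mitochondrial genes were detected, together 2.99% of human counts, and the lowest, MT-ND6, had 156 counts.

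Along the mouse mitochondrial chromosome the counts were interrupted. Of 15 genes of at least 200 bases, 6 neighbouring genes had between 0 and 5 counts in NIH3T3, while the other 9 had at least 158. These 6 genes span bases 7013 to 10173 of chromosome M in the files' coordinates, a stretch of 3161 bases with 9 genes of any length and 14 counts in all. That is 0.0236% of the mitochondrial counts of NIH3T3 (0.0129 to 0.0396%). Among genes of at least 200 bases, the one before the stretch, ENSMUSG00000064351.1, had 2042 counts, and the one after it, ENSMUSG00000064363.1, had 876. The shorter genes between ENSMUSG00000064351.1 and the stretch had 0 counts. No human mitochondrial gene of at least 200 bases had fewer than 156 counts in HEK293. The same stretch was near empty in the other libraries that hold mouse RNA, with 3 of 14992 mouse mitochondrial counts in the co-culture input and 0 to 2 counts in each IP, of 3523 to 7060. The stretch was seen and its bounds set after the values were known. The lower mitochondrial share of NIH3T3 therefore leaves out genes that HEK293 counted, and the part of that in the difference was not tested. The higher share of the leading 3 mitochondrial genes in NIH3T3 is also read with these genes near 0, and that part was not tested either.

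**Figure D2:**
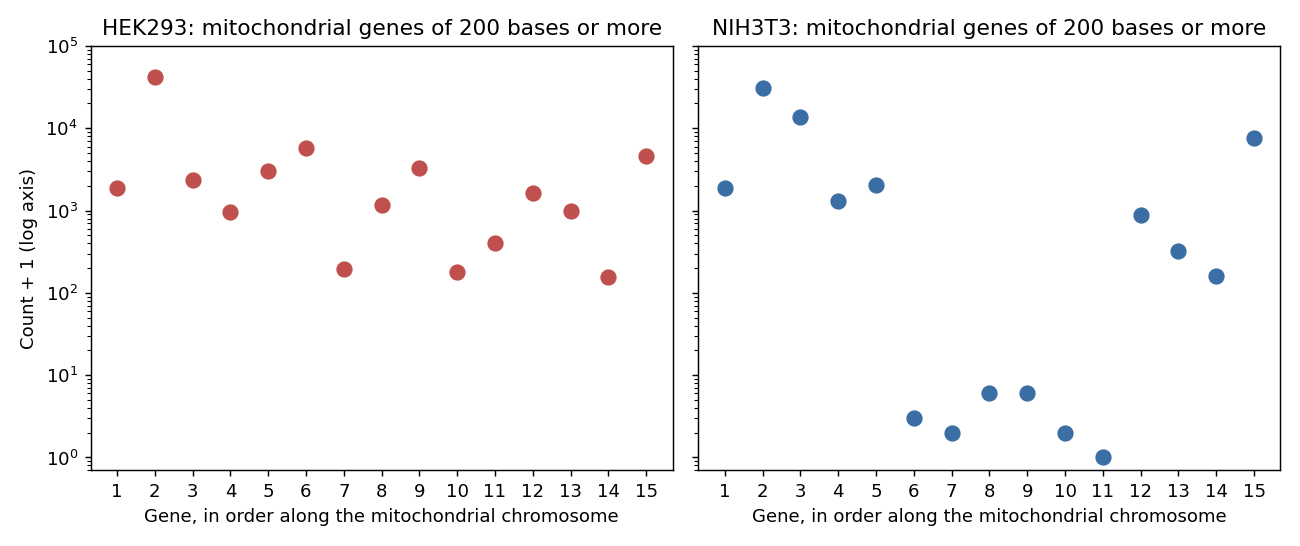
Count plus 1 (vertical axis, log scale) of each mitochondrial gene of at least 200 bases, in order along the chromosome, in HEK293 (left, human genes) and NIH3T3 (right, mouse genes). All 15 human genes lie at 156 counts or more, and the mouse genes in places 6 to 11 lie at 0 to 5 counts.

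The rest of the HEK293 transcriptome was read through lists of human genes by function. Of all 19940 protein-coding genes, 54.4% had a count and 25.2% had at least 10, the shares to set beside the numbers detected below. Protein-coding genes held 92.5% of human counts, mitochondrial ribosomal RNAs 5.36%, pseudogenes 0.933%, long intergenic RNAs 0.620% and antisense RNAs 0.282%. Ribosomal proteins were the largest class, with all 81 genes detected and 27.4% of human counts (27.3 to 27.5%). Their median was 2313 TPM, against a median of 4.16 TPM over all human genes with a count. RPS18 was highest at 9941 TPM, then RPS12 at 8375 and RPL35 at 8313, while RPS10 and RPL36A had 15 and 17 counts. Counted levels within the class therefore ran between 11.6 and 9941 TPM. Of the 81 genes, 22 share over 10% of their exonic bases with another gene, so their levels are uncertain. The part of that overlap in the range was not tested. Genes of this family have near-identical processed copies elsewhere in the genome, so single members are uncertain where reads map to more than 1 place. RPL22, the protein tagged in the study, had 73 counts and 42.3 TPM, and its paralogue RPL22L1 had 219 counts and 256 TPM. Both lay below the median of the class.

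Translation factors followed the ribosome at a lower level, with 33 of 34 genes detected, 1.42% of human counts and a median of 67.6 TPM. EEF1B2, which recharges the elongation factor with GTP, had 1926 TPM, the elongation factor EEF1A1 itself 1033 TPM and the start-site factor EIF1 898 TPM. Reads that map to more than 1 place were not counted, so the order of these genes is uncertain where such reads occur. EEF1G, a partner of EEF1B2, had 0 counts, and the helicase EIF4A1 had 1; both were picked after their values were seen. EEF1G shares 99.9% of its exonic bases with other genes and EIF4A1 48.6%, so both levels are uncertain, and the part of the overlap was not tested.

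Among messages for energy metabolism in HEK293, a few glycolytic ones and the nuclear set of the respiratory chain were high. The 40 nuclear respiratory genes were all detected, with 2.35% of human counts and a median of 430 TPM. NDUFS5 and NDUFA1, small subunits of the NADH dehydrogenase, had 3466 and 2593 TPM, and COX8A of cytochrome c oxidase had 1986 TPM. Glycolysis held 1.51% of counts with 18 of 20 genes detected, 13 of them with at least 10 counts, and a median of 24.8 TPM. GAPDH reached 5233 TPM, ENO1 1899 TPM and TPI1 1706 TPM, all enzymes of the pathway's later and middle steps, and the other members lay at 145 TPM or less. The glycolytic list thus had 3 very high members above a median of 24.8 TPM, while the respiratory genes were high as a group.

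The machinery of protein folding and turnover was detected throughout. All 31 proteasome genes had a count, with 1.37% of human counts and PSMA7, a subunit of the core particle, at 3678 TPM, PSMB6 at 1582 TPM and PSMB5 at 1568 TPM. All 22 chaperones had a count, with 0.827% of human counts, and HSP90AB1 led at 778 TPM, ahead of the mitochondrial chaperonins HSPD1 at 530 TPM and HSPE1 at 501 TPM. The translocon subunits SEC61B and SEC61G, which pass new proteins into the endoplasmic reticulum, had 2353 and 857 TPM. The list of reticulum and collagen-folding genes held 0.401% of counts with 21 of 21 detected.

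Genes of redox defence and iron storage held 1.65% of human counts, with 22 of 23 detected. FTL, the light chain of ferritin, had 7155 TPM, the glutathione transferase GSTP1 3807 TPM and thioredoxin, TXN, 3797 TPM. Chromatin and RNA-binding proteins held 2.33%, with 24 of 27 detected. The histone variant H2AFZ had 5509 TPM, the nucleolar protein NPM1 2931 TPM and the nucleosome-binding protein HMGN2 2056 TPM. In the same list the embryonic RNA-binding proteins LIN28A and IGF2BP3 were at 0, as was HMGA2.

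Genes of DNA replication and mitosis were detected in HEK293 almost throughout. DNA replication held 0.440% of human counts with 36 of 37 genes detected, led by thymidine kinase TK1 at 677 TPM, the sliding clamp PCNA at 666 TPM and the dUTPase DUT at 314 TPM. Mitosis held 0.380% with 27 of 27 detected, led by CKS2 at 1616 TPM, UBE2C at 1036 TPM and CKS1B at 428 TPM. CKS2 and CKS1B bind cyclin-dependent kinases, and UBE2C is the ubiquitin-conjugating enzyme of the anaphase-promoting complex. The medians were 24.4 TPM for replication and 29.9 TPM for mitosis, above the 4.16 TPM of all detected genes. Cell cycle control, a list of cyclins, kinases and inhibitors, had a median of 2.49 TPM over all 25 members, 3 of them at 0. This lies below the 4.16 TPM of detected genes. It lies above the 0.477 TPM of all protein-coding genes with those at 0 included, which is the like measure.

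**Figure D3:**
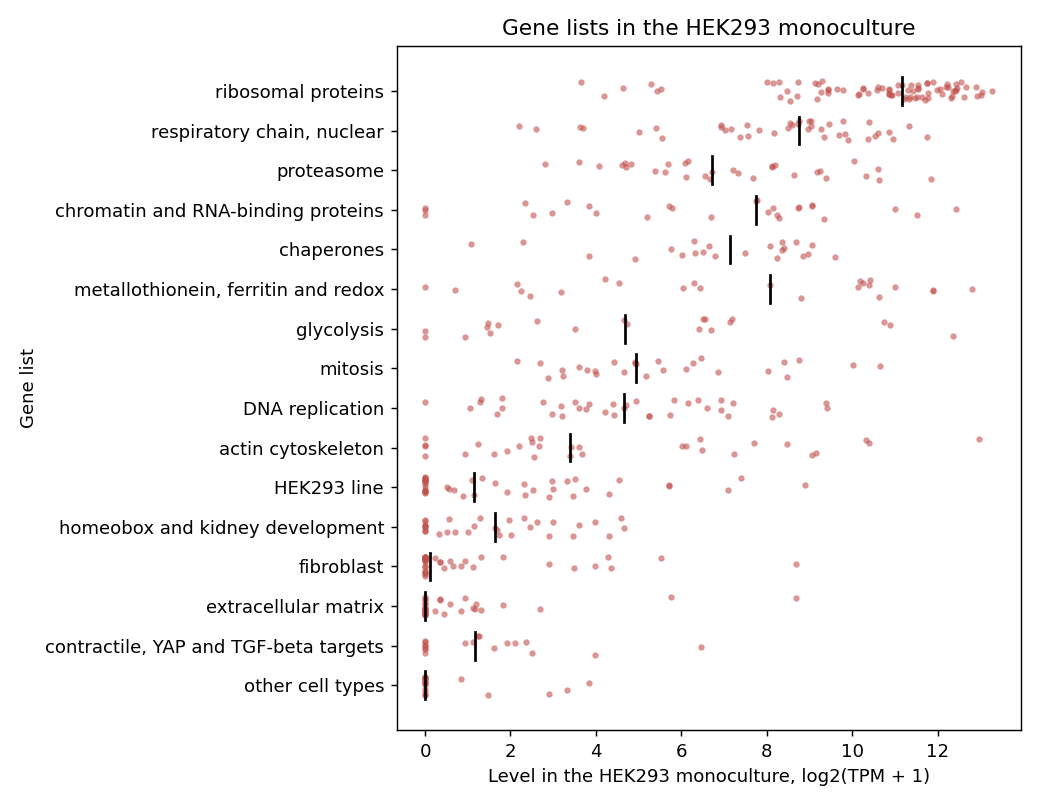
Level of each human gene in the HEK293 monoculture, as log2(TPM + 1) (horizontal axis), by gene list (rows); points are genes, offset at random within a row, and black ticks are medians over all list members. Ribosomal proteins lie highest, and the medians of the extracellular matrix and other cell type lists lie at 0.

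The cytoskeleton of HEK293 was led by the actin-binding peptide TMSB10 at 8081 TPM, with the cytoplasmic actins ACTG1 at 1336 TPM and ACTB at 1281 TPM. The actin list held 0.960% of counts with 26 of 30 detected, and the tubulin and neuronal list 0.250% with 21 of 23 detected. TUBB4B had 524 TPM, TUBB 365 TPM and TUBA1B 173 TPM. CNN1 and TPM2, which belong to contractile filaments of muscle, were at 0.

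The HEK293 label was checked against 41 genes reported for the line. Of these, 26 had a count, 14 had at least 10 counts and 15 were at 0. Counts were thus found for 63.4% of the list, against 54.4% of all 19940 protein-coding genes, and at least 10 counts for 34.1% of the list, against 25.2%. The list median was 1.23 TPM, against 0.477 TPM over all protein-coding genes with those at 0 included and 4.16 TPM over all human genes with a count. The brain-type creatine kinase CKB had 468 counts and 476 TPM, the neuronal hydrolase UCHL1 141 counts and 168 TPM, the epithelial keratin KRT18 161 counts and 136 TPM, and the neurofilament NEFL 82 counts and 51.4 TPM. KRT18 was the highest keratin of the list. KRT8, the usual partner of KRT18, had 7 counts. The kidney regulator PAX2 had 1 count, and PAX8, LHX1, WT1, GATA3, CDH1, EPCAM and KRT19 were at 0. The defining markers of kidney epithelium were thus at 0 or at the limit of this depth, while KRT18, CKB, UCHL1 and NEFL were not.

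Positional identity genes mostly had fewer than 10 counts. The homeobox and kidney development list had 23 of 31 genes detected, 6 of them with at least 10 counts. That is 74.2% with a count, against 54.4% of all protein-coding genes, and 19.4% with at least 10, against 25.2%. HOXC10 had 21 counts and 24.4 TPM, HOXB7 13 counts and 23.1 TPM, and HOXA9 21 counts and 18.8 TPM. These genes mark position along the body axis in the embryo, and the leading members come from 3 of the 4 clusters.

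Most fibroblast and matrix genes had fewer than 10 counts in HEK293. Of 38 fibroblast markers, 36 have a human gene of that name, 18 had a count and 6 had at least 10 counts. That is 50% of the list with a count, close to the 54.4% of all protein-coding genes, and 16.7% with at least 10 counts, against 25.2%. TIMP1, an inhibitor of matrix proteases, had 235 counts and 414 TPM, and VIM, the filament of mesenchymal cells, had 85 counts and 44.7 TPM. COL1A1 had 1 count, and COL1A2, COL3A1, PDGFRA, PDGFRB, THY1, DCN and SPARC were at 0. Extracellular matrix as a list held 0.0387% of human counts, with 18 of 33 genes at 0. Of the list 45.5% had a count and 9.09% at least 10, against 54.4% and 25.2% of all protein-coding genes. TIMP1 was the highest gene of the matrix list by TPM, and 1 of its 3 genes with at least 10 counts. Of 18 contractile, YAP and TGF-beta target genes 11 had a count, with ANXA2, a membrane-binding annexin, at 283 counts and the other 10 at 22 counts or fewer. That is 61.1% with a count and 16.7% with at least 10, against the same 54.4% and 25.2%. Of 19 markers of blood, endothelium, liver, muscle and fat, 5 had a count and none had 10, and APOA1, a lipoprotein gene of liver, had 7. Counts were thus found for 26.3% of these markers, against 54.4% of all protein-coding genes.

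The ranking held in part across the study. Of the 100 most abundant human genes in HEK293, 77 and 71 were also among the 100 most abundant of the 2 HA libraries. The V5 libraries held 77 and 80 of them, and the co-culture input 72. Of the 100 most abundant mouse genes in NIH3T3, the HA libraries held 83 and 82, the V5 libraries 80 and 76, and the co-culture input 79. Within the 1000 most abundant, the shared number in the co-culture input was 728 for HEK293 and 829 for NIH3T3. That input held 280163 human and 759701 mouse counts, and the part of this depth was not tested. The HA libraries shared 841 and 799 for HEK293, against 791 and 819 for NIH3T3. The V5 libraries shared 786 and 745 for HEK293, against 836 and 845 for NIH3T3.

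Few counts fell on the absent species, and their spread over genes was unlike that of the other line. The HEK293 library had 108 counts on 57 mouse genes, 0.0131% of its counts, and the NIH3T3 library had 511 counts on 226 human genes, 0.0256% of its counts. Most genes had a count of 1, which holds for 42 of the 57 mouse genes and 187 of the 226 human genes. The spread over genes was set beside that of the other line through the other line's 100 most abundant genes. In HEK293 the 100 genes most abundant in NIH3T3 held 4 of the 108 mouse counts, or 3.70% (1.02 to 9.21%), against 41.4% of mouse counts in NIH3T3 itself. In NIH3T3 the 100 genes most abundant in HEK293 held 76 of the 511 human counts, or 14.9% (11.9 to 18.3%), against 43.2% of human counts in HEK293 itself. Both shares lay below those of the other line by more than counting error.

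None of the 12 most abundant NIH3T3 genes had a count in HEK293. Together they held 14.2% of mouse counts in NIH3T3, and 0 of 108 allows them a share of up to 2.78% in HEK293. Singly these zeros do not settle a difference. Each of the 12 held between 0.735% and 2.85% in NIH3T3, below the two-sided limit of 3.36% for 0 of 108. Only the leading gene, at 2.85%, lay above the one-sided limit of 2.78%. MT-RNR2, at 5.13% of human counts in HEK293, had 0 of 511 human counts in NIH3T3, which allows a share of up to 0.587%. RPL13 also had 0, and of the 12 most abundant HEK293 genes only RPS19 with 6 counts and RPS3 with 1 had any. Mitochondrial genes had 0 of 108 mouse counts in HEK293 and 1 human count in NIH3T3 (0.196% of the 511, 0.00495 to 1.09%). In HEK293 the two-sided limit of 3.36% lies above the 2.97% that mitochondrial genes hold in NIH3T3 itself, and the one-sided 2.78% only just below it. A difference is therefore not settled at this depth.

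The human counts of the NIH3T3 library were led by TNR, which codes for the extracellular matrix glycoprotein tenascin-R of the nervous system. TNR had 6 counts in HEK293 and 160 counts in NIH3T3, which is 31.3% of the human counts there (27.3 to 35.5%). It thus had more counts where the species was absent. Among the next genes were AC246787.1 with 10 counts in NIH3T3, RPL19 with 9 and VAMP7, a protein of vesicle fusion, with 8. The 5 leading genes together held 43.6% of the human counts in NIH3T3. Ribosomal proteins had 69 counts on 16 genes, or 13.5% (10.7 to 16.8%), against their 27.4% in HEK293. Most of these 16 genes had 1 count, and a few genes held most of the 69 counts, so the share does not describe the class evenly. RPL22, whose tagged form the study expressed, had 5 counts in NIH3T3. Per 1000 counts in HEK293, RPL19 had 2.87 counts in NIH3T3, RPS19 had 0.715 and RPL13 had 0. These values rest on 9, 6 and 0 counts, and RPL19 was named because it was among the leading genes here. They therefore do not settle whether the ribosomal protein genes appeared in the proportions of HEK293.

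**Figure D4:**
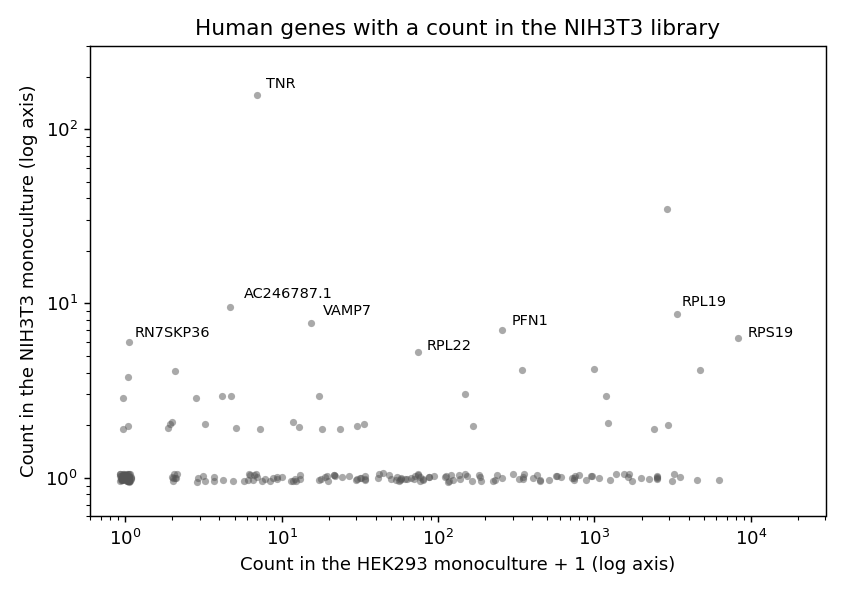
Human genes with a count in the NIH3T3 library, by their count there (vertical axis, log scale) and their count plus 1 in the HEK293 library (horizontal axis, log scale); points are jittered and some of the genes with at least 5 counts in NIH3T3 are named. TNR stands highest, with 6 counts in HEK293 and 160 in NIH3T3, and the bottom row holds the 187 genes with 1 count.

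By gene type, 424 of the 511 human counts in NIH3T3 lay on protein-coding genes, or 83.0% (79.4 to 86.1%), and 55 on pseudogenes, or 10.8% (8.21 to 13.8%). Pseudogenes held 0.933% of human counts in HEK293 itself. Human genes at 0 in HEK293 numbered 57 of the 226, with 69 counts. In the HEK293 library 17 of the 57 mouse genes, with 24 counts, were at 0 in NIH3T3. The leading mouse gene there was ENSMUSG00000096942.1, a gene of 438 exonic bases on chromosome 12 with 12 counts (11.1% of the 108, 5.87 to 18.6%). It had 720 counts in NIH3T3. Genes whose exons merge into 1 stretch held 39.8% of the mouse counts in HEK293 (30.5 to 49.7%), against 8.03% of mouse counts in NIH3T3 itself.

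TNR was then followed through the other libraries of the study. Beside the 160 counts of the NIH3T3 monoculture it had 20 and 55 counts after HA pull-down, 168 and 266 after V5 pull-down and 125 in the co-culture input. HEK293 was left out of the mouse scale and NIH3T3 out of the human scale, since these libraries hold 108 mouse and 511 human counts. As counts per 1e6 mouse counts, the values were 80.1 in NIH3T3 (68.1 to 93.5), 126 and 157 after HA pull-down, 86.8 and 152 after V5 pull-down and 165 in the co-culture input. As counts per 1e6 human counts, they were 7.26 in HEK293, 27.4 and 45.3 after HA pull-down, 1303 and 3252 after V5 pull-down and 446 in the co-culture input. TNR was set across libraries because it led the human counts of NIH3T3, so its level there is a description.

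**Figure D5:**
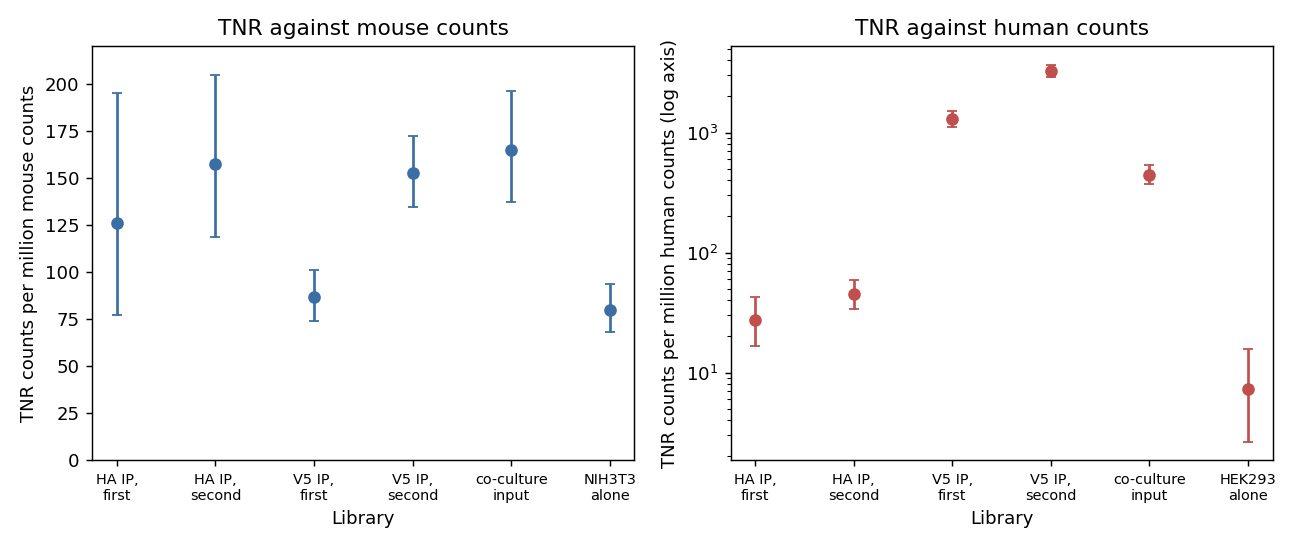
TNR counts per 1e6 mouse counts (left) and counts per 1e6 human counts (right, log scale) by library, with exact Poisson 95% intervals; HEK293 is left out on the left and NIH3T3 on the right. On the left the values lie between 80.1 and 165; on the right they run from 7.26 in HEK293 to 3252 in a V5 IP.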

How the data were processed

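RNA of HEK293 and NIH3T3 monocultures was compared by species. Per the labels' protocols, SMART-seq cDNA went into Nextera DNA Flex libraries. The authors deposited raw counts, as whole numbers for each gene. Per the file headers, featureCounts 1.5.2 counted exons by gene in paired mode without strand (option 0), over both species' annotations joined, and with no option for reads that map to several places. Upstream tools, per the submitters' processing notes, were STAR 2.5.2, SAMtools, Trim Galore and bcl2fastq, with hg38 as human build; no mouse build is named in the sources used here.

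All 58721 human identifiers matched GENCODE 29. Symbols were found for 0 mouse identifiers, so the planned comparison of same-named gene pairs, with its list medians and pair ratios, was not run. CPM, TPM, shares, ranks and intervals were computed from the counts. Thinning used the hypergeometric expectation. No test was made, since each line has 1 library. The thinning was tested against random draws from the NIH3T3 counts, and the share of the 10 most abundant genes on simulated counts. The other steps were not tested in this way.

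Members and lists were chosen with earlier results of these data known. Named by rule were the 12 most counted genes per line, the 3 highest members of each list in HEK293 by TPM, the 5 leading genes of the absent species, RPL22, RPL22L1 and the cell type markers. Other genes, such as EEF1G and the lowest members of a list, were named after their values were seen. A few genes that met this rule are not reported here. Alternatives left out mitochondrial genes, non-coding human genes or the leading gene, or used TPM. The software was matplotlib 3.10.9, scipy 1.17.1, pandas 2.3.3 and numpy 2.4.6 on Python 3.11.15.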

Additional observations from a re-analysis of the deposited data

How the results depend on the processing

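Of 22 alternatives run, 8 stayed within the interval of the value (or within 1.5 times, for counts of genes) and 14 moved. With mitochondrial genes left out, the 10 most abundant genes held 9.36% in HEK293 and 12.2% in NIH3T3, and the 100 most abundant 39.9% and 40.5%, which turns the order of the lines. By TPM the shares were 18.9% in HEK293 and 16.6% in NIH3T3 for 10 genes and 50.9% and 48.5% for 100 genes, and 95 genes in HEK293 and 109 in NIH3T3 reached 50%. With protein-coding human genes only, the HEK293 shares were 9.28% and 41.1%, and the human share of NIH3T3 counts was 0.0212%. Without TNR that share was 0.0176%, against 0.0116% for mouse counts in HEK293 without its leading gene. Gene types of mouse genes were not used here, so the protein-coding alternative was run on human genes. The alternatives for same-named pairs, lists between lines and co-culture pairs were not run, since mouse identifiers had no symbols.

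No paired analysis was possible because each line has 1 library and the replicate numbers in the labels belong to the IPs. Depth limits low genes: a count of 0 allows up to 3 counts (a one-sided 95% limit), which is 3.63 CPM in HEK293 and 1.5 CPM in NIH3T3. Reads that map to several places were not counted, which touches ribosomal protein genes and their copies.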

Other observations

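Several further gene groups were read in HEK293 only, since mouse genes could not be matched. Cell cycle control genes held 0.108% of human counts with 22 of 25 detected and a median of 2.49 TPM. The kinase CDK4 had 369 TPM, the transcription factor MYC 184 TPM and the inhibitor CDKN2C 26.2 TPM, while the inhibitor CDKN1A, named after its value was seen, had 0 counts. Genes of serine synthesis and ATF4 targets held 0.171% with 18 of 19 detected, led by PHGDH, the entry enzyme of serine synthesis, at 223 TPM and ATF4 at 213 TPM. Cholesterol synthesis held 0.0750% with 17 of 19 detected. Interferon response genes held 0.0599% with 10 of 18 detected, and B2M, the light chain of class I molecules, led at 195 TPM. Growth factor receptors held 0.00520%, and the highest, FGFR4, was at 3.93 TPM. Annexins, S100 proteins and galectins held 0.152%, and integrins and adhesion genes 0.00774%.

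Nuclear non-coding RNAs and snoRNA hosts held 0.437% of human counts in HEK293 (0.423 to 0.452%). MALAT1, a nuclear long non-coding RNA, had 2402 counts and 738 TPM there. The list held 0.110% and 0.134% of human counts after HA pull-down, 0.233% and 0.292% after V5 pull-down and 0.136% in the co-culture input, so the HEK293 monoculture was the highest of these 6 libraries.

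Per length, HIST1H4C, a replication-dependent histone gene, ranked just below MT-RNR2 in HEK293 with 3746 counts on 435 bases and 23370 TPM. AC090498.1, a pseudogene of 75 bases, ranked among the leading genes by TPM with 325 counts and 11760 TPM. By count it ranked 410, so its place by TPM rests on the division by 75 bases and is uncertain. Both genes were picked after their values were seen.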
